A study of Mus musculus with 13 samples.

Results

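The immunity-related GTPases (IRGs) are a family of interferon-inducible GTPases, and 7 of them (Irgm1, Irgm2, Igtp, Iigp1, Ifi47, Tgtp1 and Tgtp2) were followed by name through the 52550 genes of the count table. All 7 were found by matching the Ensembl gene ID to the mouse gene symbol. RNA-seq had been run on 13 libraries of Thy1.2-positive cells sorted from mouse retina as retinal ganglion cells (RGCs), the neurons whose axons form the optic nerve. The injured adults carried floxed Kdm6a alleles, in which loxP sites flank exon 3 of the gene for UTX, an enzyme that removes methyl groups from lysine 27 of histone H3. They received intravitreal AAV2-Cre (2 libraries, genotype given as UTX knockout) or AAV2-GFP (3 libraries, genotype given as GFP), and both groups had an optic nerve crush 3 days before the cells were taken. Their age is P42 in the labels, whereas the methods place viral injection at an age that would make them older. The other 8 libraries came from wild-type mice without injury at P1 (3 libraries), P14 (3 libraries) and P21 (2 libraries), labelled as developmental controls. AAV2 delivered to the vitreous acts on the cells it transduces, mainly RGCs, so other sorted cells of an AAV2-Cre eye need not have lost Kdm6a.

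Interferon-gamma and, more weakly, type I interferons switch on IRG genes through transcription factors that include the Irf family. The proteins fall into regulators, in which a methionine stands in the nucleotide-binding loop where other GTPases have lysine (GMS), and effectors, which keep the lysine (GKS). Regulators sit on the membranes of the host cell and keep effectors inactive there, while effectors load onto the vacuole around an intracellular parasite such as Toxoplasma and break it open, helped by autophagy proteins and followed by guanylate-binding proteins (GBPs). Mouse IRGs are known mainly from macrophages, fibroblasts and other immune or infected cells, and not as RGC genes. The regulators among the 7 were Irgm1, Irgm2 and Igtp (also called Irgm3), and the effectors were Iigp1 (Irga6), Ifi47 (Irgd) and the near-identical pair Tgtp1 and Tgtp2 (Irgb6).

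The difference between the classes can be read in the coding sequence. The 8 codons of the nucleotide-binding loop are given here from the GENCODE vM21 transcripts of the 6 members on chromosome 11, in lower case with the codon that separates the classes in capitals. It is a methionine codon (ATG) in the regulators and a lysine codon (AAG) in the effectors.
Irgm1, Irgm2 and Igtp: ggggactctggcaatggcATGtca
Ifi47: gggcagtctgggactggcAAGtcc
Tgtp1 and Tgtp2: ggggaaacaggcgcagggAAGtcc
The loop covers codons 83 to 90 of Irgm1 and of Irgm2, 91 to 98 of Igtp, 81 to 88 of Ifi47 and 63 to 70 of Tgtp1 and of Tgtp2, counted from the start codon. The regulators were identical over these 24 bases, although their whole coding sequences were 65.8% to 71.5% identical to one another in pairwise alignment. The fourth effector, Iigp1, also has lysine there (codons 76 to 83).

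The genes lie in clusters, with coordinates from GENCODE vM21 on GRCm38. Irgm1 (chr11:48861968-48871683, minus strand), Tgtp1 (chr11:48985327-48994172, minus), Tgtp2 (chr11:49057194-49064206, minus) and Ifi47 (chr11:49076587-49096974, plus) form one group. Igtp (chr11:58199556-58207591, plus) and Irgm2 (chr11:58199618-58222782, plus) overlap in a second group, while Iigp1 lies elsewhere. Tgtp1 and Tgtp2 differed in 4 of 1245 coding bases (99.7% identity), and 73.2% of the 100-base words of Tgtp1 transcripts and 76.8% of those of Tgtp2 also occurred in the transcripts of another gene, mostly of each other. How reads that match both were counted is not given in the sources used here, so the split between these 2 genes is uncertain and their sum is the firmer value. For the other members 0% to 5.16% of words were shared, and Igtp and Irgm2 had 162 exon bases in common.

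Promoters were looked at because interferon acts on these genes through short DNA elements. Both strands of the 300 bases from 250 before to 50 after each RefSeq start (GRCm38.p6) were searched for the core of the gamma-activated site (GAS), TTCNNNGAA, and for a core of the interferon-stimulated response element (ISRE), GAAANNGAAA or its reverse TTTCNNTTTC. Igtp, Irgm2, Tgtp1 and Tgtp2 each held 1 GAS core and 1 ISRE core, which did not overlap, and Irgm1 held 2 ISRE cores that overlapped each other and no GAS core. Ifi47 held neither within this window, and Iigp1 was not in the promoter table. Among 32851 promoters of the same length, 8.30% held a GAS core, 3.44% an ISRE core and 0.454% both. The stretches of 48 bases around the matches are shown, 5′ to 3′ on the strand of the gene, because they show how alike the members are there, and capitals mark the matched bases.
Igtp, chr11:58199498-58199545, plus: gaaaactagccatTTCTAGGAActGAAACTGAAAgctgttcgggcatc
Irgm2, chr11:58214889-58214936, plus: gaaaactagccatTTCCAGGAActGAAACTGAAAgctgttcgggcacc
Tgtp1, chr11:48992300-48992347, minus: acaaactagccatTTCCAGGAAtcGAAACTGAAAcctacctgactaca
Tgtp2, chr11:49064259-49064306, minus: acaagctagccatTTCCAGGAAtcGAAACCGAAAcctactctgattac
Irgm1, chr11:48871427-48871474, minus: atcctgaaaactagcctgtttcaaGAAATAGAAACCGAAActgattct
In the first 4 of these the GAS core came first and the ISRE core began 11 bases further on, at -34 in Igtp, -64 in Irgm2, -77 in Tgtp1 and -70 in Tgtp2 relative to the start. These are matches of letters, and binding was not measured here.

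Library totals ran from 13637602 to 16070720 counts in the injured adults and from 30357454 to 38812917 in development. Levels are CPM, counts scaled to one fixed library total after TMM (trimmed mean of M values), which evens out composition between libraries. Group values are the mean and SD of the libraries, and listed libraries run in replicate order. The whole-gene count of Kdm6a was 111 ± 1.11 CPM in AAV2-Cre (SD, n = 2) and 110 ± 11.8 CPM in AAV2-GFP (SD, n = 3), but it adds up all exons while 1 exon is floxed, so it does not check the deletion. The cell type named in the labels was only partly borne out by its markers. Summed over 12 RGC markers the level was 339 to 408 CPM in AAV2-Cre and 334 to 408 CPM in AAV2-GFP. Without injury this sum was 9721 to 10790 CPM at P1, 1287 to 1463 CPM at P14 and 465 to 862 CPM at P21. The RGC factor Pou4f2 was at 0 in both AAV2-Cre libraries, and none of the 12 was at 0 in all AAV2-GFP libraries. Between these groups 11 of the 12 had enough counts to be tested. In the injured adults 14 microglia and macrophage markers summed to 9398 to 12160 CPM in AAV2-Cre and 7259 to 9913 CPM in AAV2-GFP. Bulk libraries cannot tell a gene's level per cell apart from the number of cells that express it.

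In the injured adult libraries, all 7 IRGs were expressed and every one had more CPM in both AAV2-Cre libraries than in any AAV2-GFP library. The differences were 2.62-fold to 5.06-fold in the fit, and 5 members passed the test: the regulators Irgm1 and Igtp and the effectors Ifi47, Tgtp1 and Tgtp2. Irgm2 and Iigp1 were on the same side but did not pass. This comparison asks what differs, after nerve injury, between sorted cells of floxed eyes given AAV2-Cre and those given AAV2-GFP. The virus was given before the crush. The groups also differ in what the virus carries, Cre or GFP, and no library came from wild-type eyes given AAV2-Cre. An effect of Cre or GFP thus cannot be told apart from the loss of Kdm6a.

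Among the regulators, Irgm1, which is also tied to lysosomes and autophagy, was at 90.8 and 115 CPM in AAV2-Cre, against 23.3, 17.4 and 37.1 CPM in AAV2-GFP. Igtp, found at the endoplasmic reticulum and on lipid droplets, was the regulator with the highest level, also per kilobase of exon, at 318 and 336 CPM in AAV2-Cre, against 75.7, 71.7 and 126 CPM in AAV2-GFP. Irgm2, a Golgi-associated regulator, was at 101 and 99.0 CPM in AAV2-Cre, against 24.9, 26.3 and 60.02 CPM in AAV2-GFP. In each case AAV2-GFP replicate 3 stood above the other AAV2-GFP libraries and yet below both AAV2-Cre libraries. The log2 fold change of Irgm1 was 1.95 (SE 0.29, edgeR quasi-likelihood test with Benjamini-Hochberg adjusted p = 0.019) and that of Igtp 1.80 (SE 0.24, edgeR adjusted p = 0.015). For Irgm2 it was 1.39 (SE 0.35, edgeR adjusted p = 0.092), which did not pass the threshold of 0.05.

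Among the effectors, Ifi47 had the highest level of the family, also per kilobase of exon, with 453 and 417 CPM in AAV2-Cre, against 95.7, 92.4 and 173 CPM in AAV2-GFP. Iigp1, the effector on chromosome 18 (60376027 to 60392634, plus strand) and the one whose assembly on the parasite vacuole is best described, was at 279 and 254 CPM in AAV2-Cre, against 26.9, 26.3 and 100.1 CPM in AAV2-GFP. Tgtp2 was at 143 and 159 CPM in AAV2-Cre, against 23.3, 19.7 and 51.2 CPM in AAV2-GFP. Again the groups did not overlap, and AAV2-GFP replicate 3 was the highest of its group, by 3.73 times over the next library for Iigp1 and by 1.10 times for Tgtp1, the largest and the smallest such gap among the members. Tgtp1, the less counted of the pair, was at 22.7 and 21.2 CPM in AAV2-Cre, against 5.03, 2.72 and 5.54 CPM in AAV2-GFP. Added up, Tgtp1 and Tgtp2 came to 173 ± 10.9 CPM in AAV2-Cre (SD, n = 2) and 35.8 ± 18.3 CPM in AAV2-GFP (SD, n = 3). The log2 fold changes were 1.81 for Ifi47 (SE 0.26, edgeR adjusted p = 0.017), 2.27 for Tgtp1 (SE 0.34, edgeR adjusted p = 0.019) and 2.22 for Tgtp2 (SE 0.36, edgeR adjusted p = 0.0245). Iigp1 had the largest fold change of the 7, at 2.34, but also the largest SE, 0.52, and missed the threshold (edgeR adjusted p = 0.065).

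**Figure D1:**
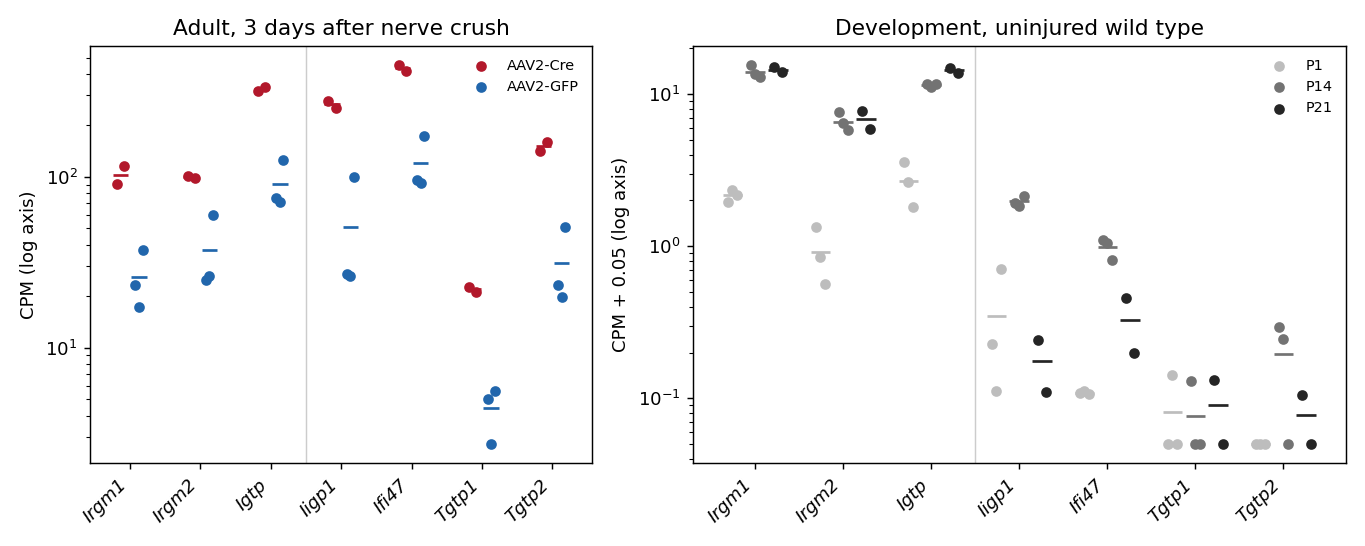
CPM of the 7 IRGs in each library (points) with the group mean (short lines), on log axes, for the injured adults at left (AAV2-Cre red, AAV2-GFP blue) and development at right (P1 light, P14 mid, P21 dark grey, with 0.05 added so that libraries at 0 can be drawn). A vertical line separates regulators from effectors. All red points lie above the blue points of the same gene, and in development the group means of the regulators lie above those of the effectors, in CPM and per kilobase.

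Set against the background, 5 of 7 members were higher by the edgeR test where 1.33% of all 18395 genes tested were, and 0 of 7 were lower where 0.294% were. No member was lower at an unadjusted p under 0.05 or by DESeq2 or limma-voom either. For all 7 the groups did not overlap, with AAV2-Cre higher, which held for 19.5% of all genes. Their median log2 fold change was 1.95, against -0.03 over all genes. Within the classes, 2 of 3 regulators (median 1.80) and 3 of 4 effectors (median 2.25) were higher. Tgtp1 and Tgtp2 count separately here although the split of reads between them is uncertain, and their sum was not tested. DESeq2 called 6 of the 7 and left out Iigp1 (DESeq2 adjusted p = 0.054), and limma-voom called all 7.

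The calls rest on few libraries. Leaving out AAV2-GFP replicate 3 gave 7 called members, leaving out AAV2-GFP replicate 1 or replicate 2 gave 3 or 1, and leaving out AAV2-Cre replicate 1 or replicate 2 gave 0, although all 7 had an unadjusted edgeR p under 0.05 in each of these fits. With 1 AAV2-Cre library left, the spread came from AAV2-GFP alone and was taken to hold for that library too. The direction was the same in every one of these fits, and the log2 fold changes lay between 1.16 and 3.30 over all alternatives.

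**Figure D2:**
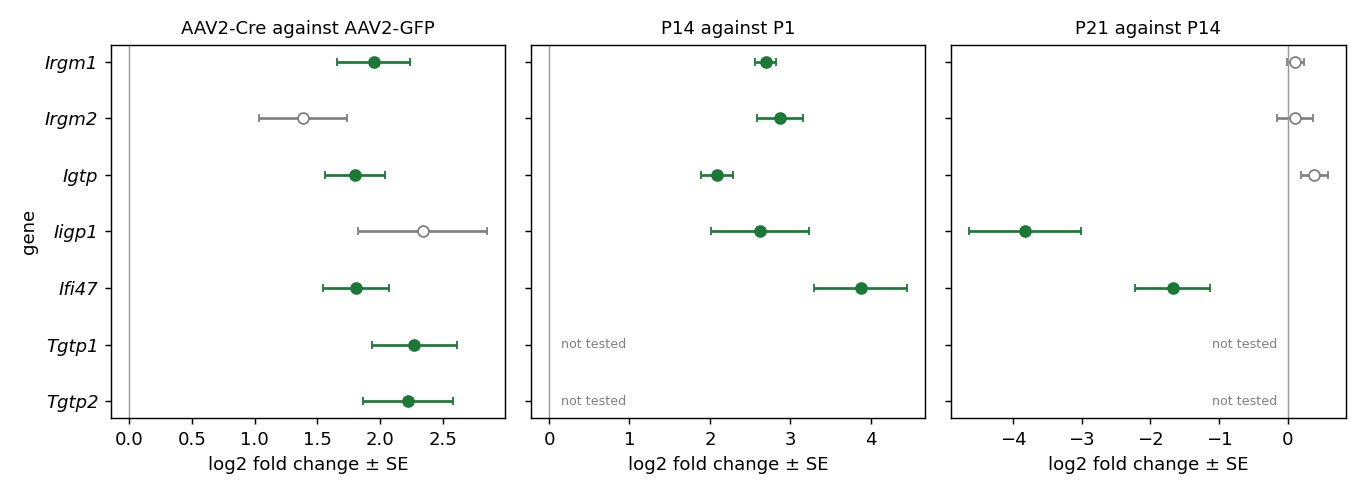
Log2 fold change (x axis) ± SE of each IRG in the comparisons AAV2-Cre against AAV2-GFP, P14 against P1 and P21 against P14 from the edgeR fits, with filled green points for an adjusted p under 0.05 and open points for genes that did not pass. At left all 7 lie right of 0, from 1.39 to 2.34, and at right Iigp1 and Ifi47 lie at -3.83 and -1.68 while the regulators lie near 0.

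As a family, the 7 genes summed to 1406 and 1401 CPM in AAV2-Cre, against 275, 257 and 554 CPM in AAV2-GFP, which gives means of 1404 ± 3.35 CPM (SD, n = 2) and 362 ± 166 CPM (SD, n = 3). The AAV2-Cre libraries lay close together, while AAV2-GFP replicate 3 stood well above the other AAV2-GFP libraries. Effectors took 63.8% and 60.8% of the family's counts in AAV2-Cre and 54.9% to 59.7% in AAV2-GFP. Iigp1 alone took 19.8% and 18.1% in AAV2-Cre, against 9.77%, 10.3% and 18.1% in AAV2-GFP, so the AAV2-GFP library with the most IRG counts also had the largest Iigp1 share of its group.

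Of 10 further IRG loci 2 were higher and 0 lower, and their median log2 fold change was 1.45. Gm12250, the effector Irgb10, which acts with GBPs on bacterial membranes, was at 133 ± 13.0 CPM in AAV2-Cre (SD, n = 2) and 44.3 ± 10.8 CPM in AAV2-GFP (SD, n = 3), a log2 fold change of 1.54 (SE 0.22, edgeR adjusted p = 0.017). Gm5431 (Irgb9b8) was at 38.5 ± 1.87 CPM in AAV2-Cre and 13.3 ± 4.05 CPM in AAV2-GFP, a log2 fold change of 1.49 (SE 0.27, edgeR adjusted p = 0.038). The neighbours of Iigp1 on chromosome 18, Gm4841, Gm4951 and F830016B08Rik, had log2 fold changes of 1.65, 1.40 and 1.56 with SEs of 0.79, 0.65 and 0.91 and did not pass. Irgq and Irgc1, which lie apart on chromosome 7, were at -0.62 (SE 0.28) and -0.0047 (SE 1.03) and did not pass either, and nor did Gm12185, 9930111J21Rik1 and 9930111J21Rik2, at 1.82, 1.00 and 0.83. At an unadjusted p under 0.05, 5 of the 10 were higher and 0 lower by edgeR, and DESeq2 called 5 higher and 0 lower. Gm12250 was annotated as a processed pseudogene in GENCODE vM21 and as protein coding in RefSeq, and Gm12185 shares 223 exon bases with Tgtp1.

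Upstream of the IRGs, the ligand Ifng, made mainly by T and NK cells, was at 15.5 and 8.25 CPM in AAV2-Cre, against 4.597, 6.17 and 17.2 CPM in AAV2-GFP. The groups overlapped, and the highest Ifng value of all was in AAV2-GFP replicate 3, the AAV2-GFP library with the most IRG counts. Its log2 fold change was 0.30 (SE 0.56, edgeR adjusted p = 0.85). The other ligands listed, Ifnb1, Ifna2, Ifna4, Ifnl2 and Ifnl3, had 0 counts in all 5 injured libraries, which allows up to 3 counts a library. Of the 4 receptor genes 0 passed with edgeR (2 had an unadjusted p under 0.05, and DESeq2 called 2 higher, limma-voom 0). The first chain of the interferon-gamma receptor, Ifngr1, was at 943 ± 13.6 CPM in AAV2-Cre and 670 ± 59.1 CPM in AAV2-GFP (SD, n = 2 and 3), a log2 fold change of 0.45 (SE 0.15, edgeR adjusted p = 0.17).

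Of 11 signal transducers, 6 were higher in AAV2-Cre and 0 were lower, with a list median log2 fold change of 1.11. Irf1, an interferon-induced factor that binds ISREs of IRG genes, was at 337 ± 49.8 CPM in AAV2-Cre (SD, n = 2) and 119 ± 42.2 CPM in AAV2-GFP (SD, n = 3), a log2 fold change of 1.47 (SE 0.26, edgeR adjusted p = 0.035). Stat2, Irf7, Irf8, Irf9 and Usp18, which damps type I interferon signalling, were also higher, with log2 fold changes of 1.07 to 1.93. The kinases Jak1, Jak2 and Tyk2, Nlrc5, the transactivator of MHC class I genes, and Socs1, an inhibitor of the Jak kinases, did not pass, with values of 0.16 to 1.11. No transducer was lower at an unadjusted p under 0.05, or by DESeq2 or limma-voom.

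Downstream partners divided by kind. Of 11 GBPs, 8 were higher and 0 lower (0 at an unadjusted p under 0.05, by DESeq2 or by limma-voom), with a median log2 fold change of 1.58. Gbp10 had the smallest p, at 43.1 ± 6.62 CPM in AAV2-Cre (SD, n = 2) and 5.61 ± 1.99 CPM in AAV2-GFP (SD, n = 3), a log2 fold change of 2.90 (SE 0.31, edgeR adjusted p = 0.0070), followed by Gbp3 at 1.58 (SE 0.18, edgeR adjusted p = 0.0083). GBP genes are themselves a family of close paralogs, so reads may have been split among them. Of the 10 autophagy genes that help IRGs onto vacuoles, 0 passed in either direction (0 at an unadjusted p under 0.05, and 0 by DESeq2 or limma-voom), with a median of 0.09. Gabarap, one of the ubiquitin-like proteins that mark these membranes, was nearest, at a log2 fold change of 0.48 (SE 0.24, edgeR adjusted p = 0.36), and Atg5 followed at 0.23 (SE 0.16, edgeR adjusted p = 0.53). Of 3 genes that act in ubiquitin tagging of vacuoles 0 passed (1 at an unadjusted p under 0.05, and 0 by DESeq2 or limma-voom), with Sqstm1 at 0.43 (SE 0.18, edgeR adjusted p = 0.27) and Trim21 at 1.18 (SE 0.85, edgeR adjusted p = 0.55).

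**Figure D3:**
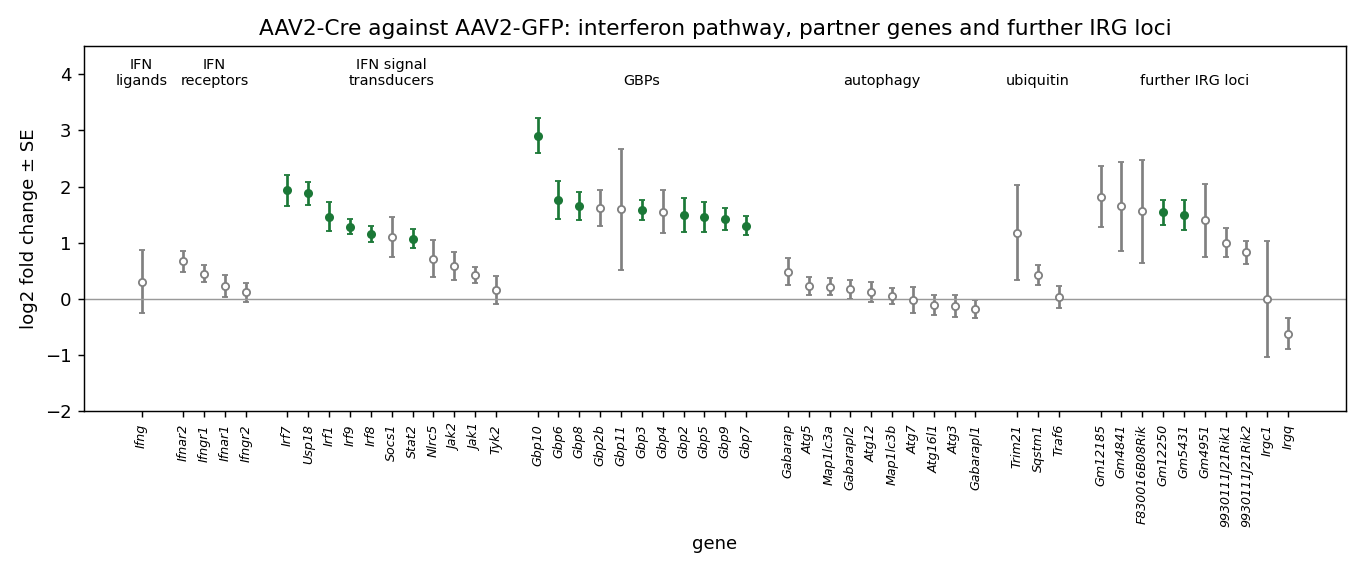
Log2 fold change (y axis) ± SE, AAV2-Cre against AAV2-GFP, of each gene tested in the lists of interferon ligands, receptors and signal transducers, GBPs, autophagy and ubiquitin genes, and further IRG loci, with filled green points for an edgeR adjusted p under 0.05. The passing genes are 6 transducers, 8 GBPs and 2 further IRG loci, Gm12250 and Gm5431, and the autophagy genes lie around 0.

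Among the immune cell markers 3 passed as higher in AAV2-Cre, all from the B cell list. The sum of 12 B cell markers was 15463 and 18561 CPM in AAV2-Cre, against 2987, 9338 and 7782 CPM in AAV2-GFP, and 3 of the 12 passed as higher (Cd79a, Ms4a1 and Fcrla, log2 fold changes 1.63, 1.58 and 1.25). At an unadjusted p under 0.05, 10 of the 12 were higher, and DESeq2 called 8 and limma-voom 4 higher. None was lower at an unadjusted p under 0.05, by DESeq2 or by limma-voom. The 18 T and NK cell markers summed to 1630 and 987 CPM in AAV2-Cre, against 439, 757 and 764 CPM in AAV2-GFP. None passed with edgeR, while 15 were higher at an unadjusted p under 0.05, and DESeq2 called 10 and limma-voom 2. Of 14 microglia and macrophage markers 0 passed, with 3 higher and 1 lower at an unadjusted p under 0.05, 1 called lower by DESeq2 and 0 by limma-voom. Of 14 rod markers 0 passed (5 lower at an unadjusted p under 0.05, 2 called lower by DESeq2 and 1 by limma-voom), with sums of 14080 to 30550 CPM in AAV2-Cre and 29010 to 36380 CPM in AAV2-GFP. Among the other lists Isl1, an RGC and amacrine cell factor, was lower, at 39.6 ± 7.93 CPM in AAV2-Cre (SD, n = 2) and 93.0 ± 10.8 CPM in AAV2-GFP (SD, n = 3). Its log2 fold change was -1.27 (SE 0.20, edgeR adjusted p = 0.022). By contrast, 10 of the 11 RGC markers tested had a log2 fold change above 0, and the list median was 0.39. Vim, a filament protein of Mueller glia, was higher, at a log2 fold change of 0.91 (SE 0.18, edgeR adjusted p = 0.048). None of the 3 immune lists had a marker at 0 in all libraries of either group. Within AAV2-GFP, replicate 3, with the most IRG counts, also had the highest T and NK sum of its group and the highest sum for microglia and macrophages (9913 CPM, against 7259 CPM in replicate 1 and 9551 CPM in replicate 2), and the highest B cell marker sum was in replicate 2. The part of all these cells in the IRG difference was not tested.

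**Figure D4:**
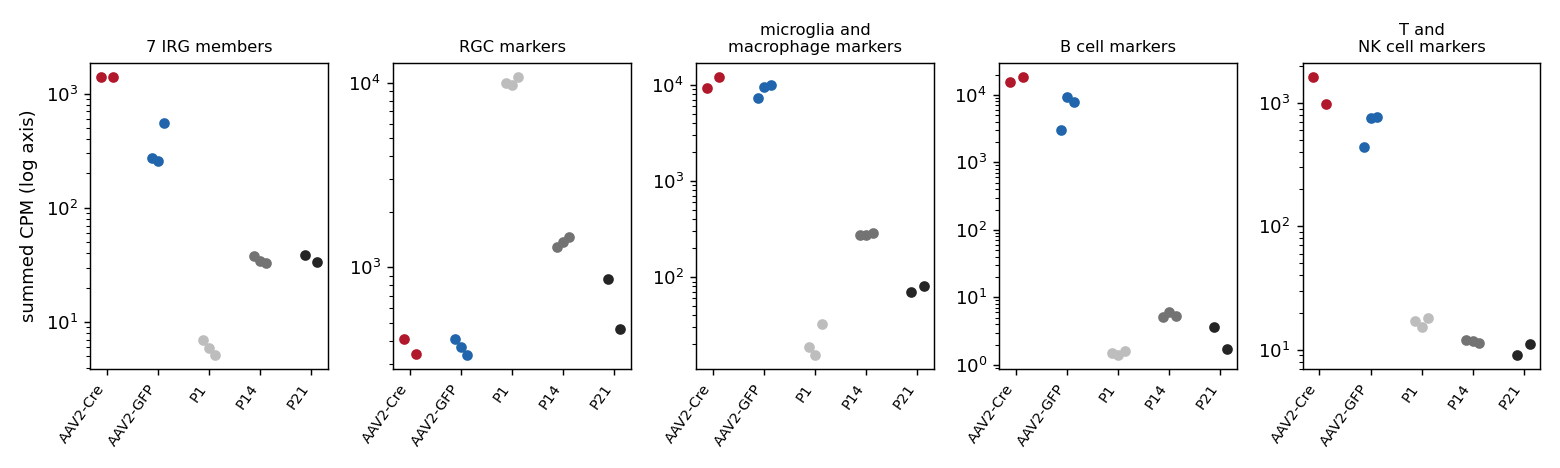
Summed CPM (log axes, each panel with its own range) in each library for the 7 IRGs and for the markers of RGCs, microglia and macrophages, B cells, and T and NK cells. Points are libraries in the groups AAV2-Cre, AAV2-GFP, P1, P14 and P21. The IRG sum is 1401 to 1406 CPM in AAV2-Cre, 257 to 554 CPM in AAV2-GFP and 38.4 CPM or less in development, and the immune marker sums are also highest in the injured libraries.

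During development IRG levels were low, and the family changed mainly between P1 and P14. The 7 genes summed to 6.97, 5.89 and 5.12 CPM at P1, 37.9, 33.9 and 33.0 CPM at P14 and 38.4 and 33.7 CPM at P21. Between P14 and P21 the effectors Iigp1 and Ifi47 fell, and no regulator passed the test in either direction. Both comparisons use the P14 libraries and are not independent. This dataset follows the sorted cells through the ages over which RGCs are known to lose their capacity to grow axons.

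Irgm1 was at 1.91, 2.28 and 2.13 CPM at P1, 15.5, 13.4 and 12.8 CPM at P14 and 15.0 and 13.9 CPM at P21. Irgm2 was at 1.29, 0.80 and 0.52 CPM at P1, 7.55, 6.37 and 5.72 CPM at P14 and 7.74 and 5.82 CPM at P21. Igtp was at 3.53, 2.59 and 1.76 CPM at P1, 11.6, 11.1 and 11.6 CPM at P14 and 14.9 and 13.8 CPM at P21. In all 3 regulators the P1 libraries lay below every P14 and P21 library, and P14 and P21 overlapped for Irgm1 and Irgm2 but not for Igtp. At P14 against P1 the log2 fold changes were 2.69 for Irgm1 (SE 0.13, edgeR adjusted p = 6.39e-08), 2.88 for Irgm2 (SE 0.28, edgeR adjusted p = 1.01e-05) and 2.09 for Igtp (SE 0.20, edgeR adjusted p = 8.06e-06). At P21 against P14 they were 0.11 for Irgm1 (SE 0.12, edgeR adjusted p = 0.53), 0.11 for Irgm2 (SE 0.26, edgeR adjusted p = 0.79) and 0.38 for Igtp (SE 0.20, edgeR adjusted p = 0.17), and none passed.

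Iigp1 had 6, 2 and 23 counts at P1, 70, 55 and 82 counts at P14 and 7 and 2 counts at P21. Ifi47 had 2 counts in each P1 library, 39, 31 and 30 counts at P14 and 15 and 5 counts at P21. Both effectors thus peaked at P14, where no library overlapped with P1 or P21. On the CPM scale Iigp1 averaged 0.30 ± 0.32 CPM at P1 (SD, n = 3), 1.92 ± 0.15 CPM at P14 (SD, n = 3) and 0.13 ± 0.09 CPM at P21 (SD, n = 2), and Ifi47 averaged 0.0593 ± 0.0021 CPM, 0.94 ± 0.16 CPM and 0.28 ± 0.19 CPM at the same ages. The log2 fold change of Iigp1 was 2.62 at P14 against P1 (SE 0.61, edgeR adjusted p = 0.0037) and -3.83 at P21 against P14 (SE 0.81, edgeR adjusted p = 0.0059). For Ifi47 these were 3.88 (SE 0.58, edgeR adjusted p = 0.00020) and -1.68 (SE 0.54, edgeR adjusted p = 0.040).

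Tgtp1 and Tgtp2 were nearly silent in development and were removed by the filter on low counts. Tgtp1 had 3 counts in 1 library of each age and 0 in all others. Tgtp2 had 0 counts in all P1 libraries, 9, 6 and 0 counts at P14 and 2 and 0 counts at P21. The summed counts of Tgtp2, 15 at P14 and 0 at P1, give a depth-scaled ratio of 4.72 when 3 counts over the group stand in for the 0, and the 95% counting interval of the ratio starts at 3.39. This ratio rests on the uncertain split between the pair. Added up, Tgtp1 and Tgtp2 had 0, 3 and 0 counts at P1, 12, 6 and 0 counts at P14 and 5 and 0 counts at P21. P14 replicate 3, at 0, overlapped with P1, and no test was made. For Ifi47 the ratio of summed counts, 100 at P14 against 6 at P1, was 15.7 with a 95% counting interval of 6.98 to 43.9, which covers counting error only.

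Read against the background, 5 of the 5 members tested were higher at P14 than at P1, where 33.6% of all 20890 genes tested were, and 0 were lower, where also 33.6% were (0 lower at an unadjusted p under 0.05, by DESeq2 or by limma-voom). For all 5 these ages did not overlap, and 38% of all genes were higher without overlap. Their median log2 fold change was 2.69, against -0.01 over all genes. Leaving out any 1 library did not change this count. Iigp1 and Ifi47 had at least 10 counts in every library only at P14, so the low-count filter kept them through the age at which they were high. Their calls at both steps are thus partly set by the filter. The 3 regulators had at least 10 counts in every development library. At P21 against P14, 2 of 5 were lower, where 19.3% of genes were, and 0 were higher, where 14.6% were (0 at an unadjusted p under 0.05, 0 by DESeq2, and Igtp by limma-voom). Iigp1 and Ifi47 were lower and Igtp was higher without overlap, against 34.7% of genes lower and 24.4% higher without overlap. The call of Ifi47 was lost when P1 replicate 1 or 2, any P14 library or P21 replicate 2 was left out, which left Iigp1 alone, with Ifi47 at -1.16 without P21 replicate 2. With at least 10 counts required in every library both effectors were left out of the fit.

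The make-up of the family moved with these levels. Effectors took 3.38% to 14.0% of the family's counts at P1, 8.61% to 8.80% at P14 and 0.62% to 1.92% at P21. The upper value at P1 came from replicate 3 and its 23 Iigp1 counts. Irgm1 and Igtp together made up most of the family at every age, for example 41.2% and 40.9% of counts in P21 replicate 2.

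Other IRG loci followed more than one course. At P14 against P1, where 33.6% of all genes tested were higher and 33.6% lower, 3 of the 5 further loci tested were higher and 1 was lower. At P21 against P14, where 14.6% of all genes tested were higher and 19.3% lower, 2 of these loci were lower. At that step 0 were higher (0 at an unadjusted p under 0.05, and 0 by DESeq2 or limma-voom). The 3 that were higher at P14 (9930111J21Rik1, 9930111J21Rik2 and Gm12185) had at least 10 counts in every library only at that age. The low-count filter thus kept them through P14, and the counts of loci at both steps are partly set by it. Among them 9930111J21Rik2 (Irgb5) was at 0.14 ± 0.07 CPM at P1 (SD, n = 3), 2.70 ± 0.63 CPM at P14 (SD, n = 3) and 0.36 ± 0.50 CPM at P21 (SD, n = 2), with log2 fold changes of 4.22 at P14 against P1 (SE 0.81, edgeR adjusted p = 0.0011) and -2.83 at P21 against P14 (SE 0.82, edgeR adjusted p = 0.025). Gm12185 (Irgb2b1) had 0 counts at P1, 53 counts in all at P14 and 1 count at P21. Irgq, which has been tied to autophagy rather than to interferon, went the other way at P14 against P1, at 72.9 to 77.8 CPM in the P14 libraries and 181 to 201 CPM in the P1 libraries, a log2 fold change of -1.36 (SE 0.05, edgeR adjusted p = 1.74e-08).

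Ligand counts in development were at or near 0. Ifng had 2 counts in 1 P14 library and 0 in all other libraries, Ifna2 also had 2 counts in 1 P14 library, and Ifnb1, Ifna4, Ifnl2 and Ifnl3 had 0 counts. Of 4 receptor genes at P14 against P1, Ifngr1 and Ifnar2 were higher (log2 fold changes 1.18 and 1.39) and Ifngr2 and Ifnar1 were lower (-1.34 and -0.27). Of 11 transducers, 4 were higher and 3 lower, where 33.6% of all genes tested were higher and 33.6% lower. Irf1, Irf7, Irf8 and Usp18 were the higher ones, with log2 fold changes of 2.39 to 2.84, and Stat2, Jak1 and Jak2 the lower ones, at -0.66 each. Of 10 GBPs tested 8 were higher and 0 lower (0 at an unadjusted p under 0.05, by DESeq2 or by limma-voom), and the smallest p were those of Gbp7 and Gbp3, with log2 fold changes of 3.05 and 2.37. Of 10 autophagy genes 1 was higher and 5 were lower, with Map1lc3b at -0.80 and Atg16l1 at -0.55, and of 3 ubiquitin genes Trim21 and Traf6 were higher at 2.53 and 0.60 and Sqstm1 was lower at -0.13. At P21 against P14, where 14.6% of all genes tested were higher and 19.3% lower, 1 receptor gene was lower (Ifngr2, -0.43). Of the transducers 2 were higher (Irf9 and Stat2, 0.27 and 0.37) and 2 were lower (Irf8 and Jak2, -0.69 and -0.24). Of the GBPs 5 were higher, among them Gbp11 and Gbp2b at 3.30 and 0.88. Of the autophagy genes Gabarapl1 was lower at -0.36, and of the ubiquitin genes Sqstm1 and Traf6 were higher at 0.28 and 0.59.

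Cell type markers moved between the same ages. Of all genes tested, 33.6% were higher and 33.6% lower at P14 against P1. At P21 against P14, 14.6% were higher and 19.3% lower. Microglia and macrophage markers summed to 15.4 to 32.8 CPM at P1, 272 to 286 CPM at P14 and 69.7 to 80.0 CPM at P21. All 13 of these tested were higher at P14 than at P1, and 12 of 13 were lower at P21 than at P14. Endothelial markers, with all 12 higher at P14, summed to 153 to 293 CPM at P1, 1487 to 1592 CPM at P14 and 1793 to 1844 CPM at P21, and 9 of 12 were lower at P21 than at P14. Pericyte and smooth muscle markers, with all 10 higher at P14 and all 10 lower at P21, summed to 120 to 394 CPM, 4374 to 4905 CPM and 636 to 975 CPM at P1, P14 and P21. Mueller glia markers summed to 2100 to 5433 CPM at P1, 19240 to 20400 CPM at P14 and 34890 to 35950 CPM at P21, with all 10 higher at P14 than at P1 and 4 of 10 higher at P21 than at P14. Rod markers summed to 164 to 169 CPM at P1, 1171 to 1365 CPM at P14 and 753 to 757 CPM at P21, with all 14 higher at P14 than at P1, while at P21 against P14 10 were lower and 1 was higher. RGC markers fell, with 11 of 12 lower at P14, to 1287 to 1463 CPM at P14, against 9721 to 10790 CPM at P1. At P21 they summed to 465 to 862 CPM, with 7 of 12 lower and 1 higher than at P14. B cell markers stayed at 6.14 CPM or less in every development library, and 4 of the 12 were at 0 in all P1 libraries (Ms4a1, Ighd, Blk and Fcrla) and 6 in both P21 libraries. How much of the IRG changes these cells account for was not tested.

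Across the 5 groups the order of the levels was the same at the top for all members. Each of the 7 genes was highest in AAV2-Cre and next highest in AAV2-GFP, without overlap between these groups or with any development library. The share of all genes ordered this way was not counted, so the order is not shown to be particular to the family. For Irgm1, Irgm2 and Igtp the order below was P21, P14 and P1, with P21 and P14 not separated beyond their spread for Irgm1 and Irgm2. For Iigp1 and Ifi47 P14 came next, followed by P1 and P21 in overlap for Iigp1 and by P21 and then P1 without overlap for Ifi47. Tgtp1 could not be ordered among the 3 ages, and for Tgtp2 neighbouring ages overlapped. Injury, virus, age, floxed allele and dataset differ together between the injured adults and development, and cannot be told apart, so no test was made across them.

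Per kilobase of exon, which allows levels to be compared between genes, Ifi47 led in AAV2-Cre with 176 ± 10.2 CPM per kb, followed by Igtp with 162 ± 6.46 (SD, n = 2 each), and the same 2 led in AAV2-GFP with 48.7 ± 18.5 and 45.1 ± 15.0 CPM per kb (SD, n = 3 each). The mean ± SD ranges of Ifi47 and Igtp overlapped in both groups. In AAV2-Cre Tgtp2, Iigp1, Irgm2, Irgm1 and Tgtp1 followed with 51.4, 45.7, 27.1, 17.7 and 6.85 CPM per kb. In the P14 libraries Igtp led with 5.65 ± 0.13 CPM per kb (SD, n = 3), followed by Irgm1 with 2.40 ± 0.24 and Irgm2 with 1.77 ± 0.25, while Ifi47 and Iigp1 were at 0.38 ± 0.06 and 0.33 ± 0.03. Per kilobase Ifi47 thus stood beside Igtp in the injured adults and below it in development.

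The genes whose profile over the 13 libraries was most like that of the family were Phf11d, Rtp4, Ptpn22, Hcls1 and Srgn. Likeness was the root mean square difference, on the log2 CPM scale, between a gene and the mean of 6 members (all but Tgtp1, whose mean log2 CPM was below 0) after each was centred on its own mean, among 14005 genes. It was 0.46 for Phf11d, 0.49 for Rtp4, 0.53 for Ptpn22, 0.54 for Hcls1 and 0.55 for Srgn. The members themselves lay 0.94 (Igtp) to 1.73 (Irgm1) from that mean. Phf11d averaged 75.9 ± 8.22 CPM in AAV2-Cre (SD, n = 2), 19.9 ± 1.80 CPM in AAV2-GFP (SD, n = 3), and 0.08, 1.06 and 0.61 CPM at P1, P14 and P21. Rtp4, itself an interferon-induced gene, averaged 126 ± 13.8 CPM in AAV2-Cre and 32.8 ± 6.76 CPM in AAV2-GFP (SD, n = 2 and 3). Ptpn22 averaged 145 ± 49.6 CPM in AAV2-Cre and 84.1 ± 37.8 CPM in AAV2-GFP (SD, n = 2 and 3), and these groups overlapped. In the same order Hcls1 averaged 232 ± 3.29 and 138 ± 28.2 CPM, and Srgn 90.8 ± 2.79 and 41.4 ± 0.73 CPM. Ptpn22 and Hcls1 act in lymphocyte signalling and Srgn is a proteoglycan of the granules of blood cells. The likeness is a description, since libraries of 1 dataset share their source and depth.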

How the data were processed

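The members, gene lists and alternatives were chosen with earlier results of these data known. Counts of 13 libraries of Thy1.2-sorted cells were used. NEBNext Ultra libraries of poly-A RNA had been read as 150-base pairs. The deposited values are raw gene counts, for which the submitters' notes name FastQC (0.11.9) and Trimmomatic (0.39) for read quality and trimming, HISAT2 (2.2.1) for alignment to GRCm38, and Subread (2.0.3), whose featureCounts did the counting. The strand and multi-mapping settings are not given in the sources used here. The labels call the samples separate replicates and the methods call them biological, but how many animals made up a library is not stated, so the p-values measure the spread between these samples. In every pair of replicates counts differed by more than sampling noise. No column was left unused, and 147 gene IDs had no symbol.

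AAV2-Cre and AAV2-GFP (5 libraries) and P1, P14 and P21 (8 libraries) were fitted separately with edgeR 4.0.16 in R 4.3.3 (TMM, filterByExpr, glmQLFit and glmQLFTest), and p-values were Benjamini-Hochberg adjusted over all genes tested. A call needs an adjusted p under 0.05, with no fold limit. Common biological variation (BCV) between replicates came to 0.340 for the injured adults and 0.109 for development. The fits were tested on simulated data. Alternatives were DESeq2 1.42.0, limma-voom (limma 3.58.1), DESeq2 size factors, library size alone, a fit over all 13 libraries, omission of the low-count filter, a minimum of 10 counts per library, a log2 fold limit of 1, a replicate block and each library left out in turn.

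The text names the 7 members, the genes of the further IRG, ligand, receptor and transducer lists where called or described, the 2 smallest p of the autophagy, ubiquitin and GBP lists, and the 5 nearest profiles (mean log2 CPM above 1, prior count 2). The 3 B cell markers, Isl1 and Vim were named after their values were seen, as were the markers named as being at 0. Lengths, overlaps and coding sequences came from GENCODE vM21 (93.3% of the file's versioned IDs match) and promoters from RefSeq, which held 6 of the 7 members. 1 gene of the transducer list is not reported here and was left out of its counts. Counting intervals cover counting error only.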

Additional observations from a re-analysis of the deposited data

How the results depend on the processing

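Of 247 alternative values for single members, 207 kept direction and call, 24 lost the call, 14 gained one and 2 turned in sign, both for Irgm2 at P21 against P14 (-0.0711 with the replicate block, and -0.11 to 0.27 with 1 library left out, lowest without P21 replicate 1), a change that passed under no setting. Members higher in AAV2-Cre than in AAV2-GFP numbered 0 to 7 with 1 library left out, and 5 to 7 under the other settings. Genes higher there numbered 969 without the low-count filter, 378 with at least 10 counts, 777 with DESeq2, 1433 with all 13 libraries in 1 fit and 5 to 253 with 1 library left out, and genes lower 543, 152, 519, 1071 and 0 to 31, with 96 by limma-voom and 23 with the replicate block. At P14 against P1, 3 members were higher with at least 10 counts, since Iigp1 and Ifi47 were no longer tested, and a log2 fold limit of 1 left 4123 genes higher and 3181 lower. At P21 against P14, 1 member was higher with limma-voom and 0 to 1 with 1 library left out, and members lower numbered 1 without the filter, 0 with at least 10 counts, 1 with the replicate block and 1 to 2 with 1 library left out. Genes higher there numbered 627 in the fit of 13 libraries, 563 with the fold limit and 1836 to 3751 with 1 library left out, and genes lower 1997 and 1923. The cause of these moves was not tested, apart from genes or samples removed by the setting. The family sum in AAV2-Cre was 1380 CPM by library size alone and 1486 CPM with DESeq2 size factors. Library size alone moved the median of all genes at P14 against P1 to 0.11, against -0.01 with TMM. Same-numbered libraries deviated together by correlations of -0.05 to 0.02, and not every P14 library correlated best with its own number at P1. No pairing by replicate number was thus seen, but groups of 2 or 3 libraries make this a weak check. The replicate block called all 7 members higher in AAV2-Cre, with Irgm2 at 1.92 and Iigp1 at 3.28. Low counts limit the effectors in development, where the highest count of Ifi47 was 39 and that of Tgtp2 was 9. This was so although the development libraries were the deeper ones.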
